A study of Homo sapiens with 6 samples.

Results

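FOXQ1, the EMT regulators SNAI2 and ZEB1, the mesenchymal filament gene VIM, the cadherins CDH1 and CDH3, and the epithelial genes EPCAM, ESRP1, ESRP2 and GRHL2 were followed in pancreatic cancer cells sorted by their surface L1CAM. The 10 genes were chosen by symbol, with earlier results of these data known. Of them, 9 were analysed among the 19469 genes of the count table, while GRHL2 was not analysed here. The cells were L3.6pl, an established human pancreatic cancer line, grown in DMEM with 10% FBS and given no treatment. Live cells were sorted with a PE-coupled anti-L1CAM antibody, dead cells being excluded with 7AAD, and mRNA was sequenced from 3 libraries of L1CAM_POSITIVE cells (here L1high) and 3 libraries of L1CAM_NEGATIVE cells (here L1low). Both groups came from the one line, the labels name no engineered allele in either, and the groups differed by label only in the sort gate. The sample titles name the line L3.6pl, the cell line field names it L6.6pl, and its disease field gives a pancreatic adenosquamous carcinoma. The methods say in general that sorting experiments were repeated independently, but nothing used here ties the libraries of a group to separate cultures or sorts, so the p-values may measure only the spread between these libraries, which may be technical.

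In the epithelial-mesenchymal transition (EMT), carcinoma cells loosen their junctions and gain features of motile mesenchymal cells. Zinc finger repressors of the SNAI and ZEB families bind E-box sequences in promoters of epithelial genes such as CDH1, and forkhead factors such as FOXQ1 have been linked to EMT in several carcinomas. Opposed to them stand the splicing regulators ESRP1 and ESRP2, which maintain epithelial transcript isoforms, and the transcription factor GRHL2. Pancreatic carcinoma cells often hold epithelial and mesenchymal features together.

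Of the 9 genes analysed, FOXQ1, VIM and CDH3 were called higher in L1low cells, EPCAM was called lower, and SNAI2, ZEB1, CDH1, ESRP1 and ESRP2 were not called. A gene was called where its p from the quasi-likelihood test of edgeR, adjusted by the Benjamini-Hochberg method over all 19467 genes tested, was under 0.05. Among all genes tested, 4.58% were called higher in L1low cells, 3.37% lower and 7.95% in either direction. The median log2 fold change was -0.04 over the 9 genes and -0.01 over all genes. The L1low and L1high libraries did not overlap for 7 of the 9 genes, against 28.8% of all genes, and ZEB1 and ESRP1 were the other two. All 9 genes passed the filter on low counts. They were chosen with earlier results of these data known, so the numbers called and not overlapping are a description. In these bulk libraries fewer cells of a type and less RNA per cell cannot be told apart.

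The libraries held 16334610 to 21064685 reads counted on genes, and no pair of libraries agreed within sampling noise. Levels are given as CPM, the reads of a gene relative to the library total, with TMM factors. L1CAM itself, the gene of the sorted antigen (chrX:153861514-153886173, minus strand), had 84.0, 69.8 and 89.5 CPM in L1high replicates 1, 2 and 3 and 17.7, 23.7 and 20.0 CPM in L1low replicates 1, 2 and 3. The groups did not overlap, and the log2 fold change was -1.99 (SE 0.12, edgeR adjusted p = 4.69e-06). The 4 keratin genes KRT7, KRT8, KRT18 and KRT19, which mark pancreatic ductal and other simple epithelia, were all present, at 684 to 1624 CPM on average in L1high and 677 to 1819 CPM in L1low cells. KRT19 was called higher in L1low cells, at 881 ± 60.6 and 1363 ± 61.5 CPM (SD, n = 3), a log2 fold change of 0.63 (edgeR adjusted p = 0.000136), opposite in sign to EPCAM, and it kept that call under every alternative run. KRT7, KRT8 and KRT18 were not called. KRT8 and KRT18 have many pseudogene copies, so their counts are uncertain. The endothelial, immune and fibroblast markers are given beside the mesenchymal genes.

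**Figure D1:**
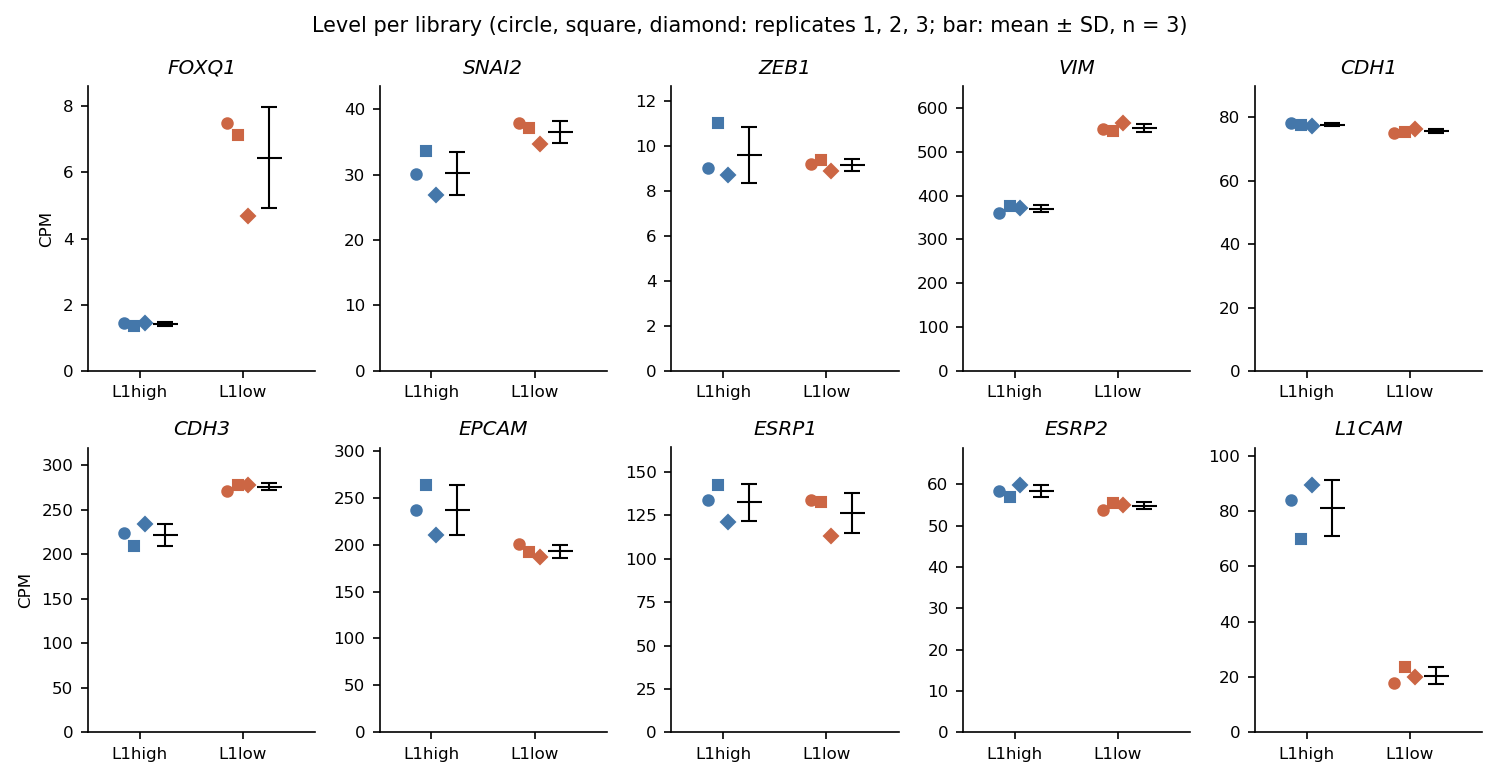
Level of each gene in each library, in CPM on a linear axis from 0, with L1high libraries in blue, L1low libraries in orange and the mean ± SD of 3 libraries as a bar. FOXQ1 lay between 1.36 and 1.46 CPM in L1high and between 4.69 and 7.48 CPM in L1low libraries, VIM rose from 370 to 555 CPM on average, and the points of ZEB1 and ESRP1 overlapped.

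The promoters of FOXQ1 and VIM are shown because both genes were higher in L1low cells and both have a window in the RefSeq promoter table of GRCh38.p14, whose windows of 300 bases cover the start of a gene and the stretch before it. The FOXQ1 window is chr6:1311848-1312147 and the VIM window chr10:17227991-17228290, both on the plus strand, and capitals mark the motifs found.
FOXQ1: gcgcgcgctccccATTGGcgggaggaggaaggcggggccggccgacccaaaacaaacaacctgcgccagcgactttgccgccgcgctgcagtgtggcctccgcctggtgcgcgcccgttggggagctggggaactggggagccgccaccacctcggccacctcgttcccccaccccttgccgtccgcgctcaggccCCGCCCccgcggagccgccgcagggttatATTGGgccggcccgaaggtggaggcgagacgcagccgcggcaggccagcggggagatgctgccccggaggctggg
VIM: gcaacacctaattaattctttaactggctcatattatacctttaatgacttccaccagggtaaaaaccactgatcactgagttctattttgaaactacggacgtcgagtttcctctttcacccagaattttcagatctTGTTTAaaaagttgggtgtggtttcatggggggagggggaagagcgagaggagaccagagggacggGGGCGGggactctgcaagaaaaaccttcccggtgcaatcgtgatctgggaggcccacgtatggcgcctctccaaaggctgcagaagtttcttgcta
The motifs searched on both strands were the E-box CAGGTG, the forkhead core TGTTTA, the AP-1 site TGANTCA, the TEAD site GGAATG, the GC box GGGCGG and the CCAAT box. In the FOXQ1 window, whose GC content was 74.7%, 1 GC box and 2 CCAAT boxes were found, all on the minus strand. In the VIM window, whose GC content was 48%, 1 forkhead core lay 112 bases before the start and 1 GC box 46 bases before it. No matches overlapped each other. Of 35116 promoter windows of the same length, 20.6% held the E-box, 12.3% the forkhead core, 7.71% the AP-1 site, 14% the TEAD site, 45% the GC box and 34.6% the CCAAT box. ZEB1 had 7 windows in the table, of which 2 held the E-box. A match describes the letters of a window and no binding was measured. Of the 10 genes, 3 had a window in the table, and SNAI2, CDH1, CDH3, EPCAM, ESRP1, ESRP2 and GRHL2 are named only.

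FOXQ1 showed the widest difference of the 9 genes. It encodes a forkhead transcription factor and is a gene of 1 exon and 2661 bases at chr6:1312098-1314758 on the plus strand (ENSG00000164379). It had 1.46, 1.36 and 1.46 CPM in L1high replicates 1, 2 and 3, and 7.48, 7.13 and 4.69 CPM in L1low replicates 1, 2 and 3. Every L1low library lay above every L1high library, and L1low replicate 3 was the lowest of its group. The means were 1.43 ± 0.0569 (SD, n = 3) and 6.43 ± 1.52 CPM (SD, n = 3), a ratio of 4.49. The log2 fold change was 2.17 (SE 0.22, 95% confidence interval 1.68 to 2.65, edgeR adjusted p = 0.000105), the third largest among the 891 genes called higher. These levels rested on few reads, 31, 28 and 24 in the L1high and 136, 128 and 83 in the L1low libraries. FOXQ1 stayed called under every alternative run, with log2 fold changes from 2.05 to 2.36.

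The forkhead genes FOXQ1, FOXF2 and FOXC1 lie side by side on chromosome 6, and of the 5 genes followed in that region FOXQ1 was the one called. FOXF2 had 3.05 ± 0.284 CPM in L1high and 3.59 ± 0.190 CPM in L1low cells (SD, n = 3). FOXC1 had 13.8 ± 1.42 and 11.5 ± 1.47 CPM. The further neighbours GMDS, an enzyme gene of fucose synthesis, and EXOC2, a gene of the exocyst complex, had log2 fold changes of -0.34 and -0.14, neither of which was called.

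The 5 genes whose profile over the 6 libraries was most like that of FOXQ1, out of 17101 whose log2 CPM averaged 1 or more, were MMP10, ITGB3, CCN2, EDN2 and CALML3. Likeness was measured as the root mean square difference of log2 CPM after each gene was centred on its own mean, which was 0.23 for MMP10 and 0.29 for CALML3. MMP10, a matrix metalloproteinase gene, had 3.36 to 3.44 CPM in L1high and 13.2 to 15.0 CPM in L1low libraries. ITGB3, an integrin beta subunit gene, had 1.60 to 1.66 and 7.30 to 7.74 CPM. CCN2, which encodes connective tissue growth factor, had 19.1 to 23.4 and 76.8 to 79.1 CPM, EDN2 encodes the peptide endothelin 2 and CALML3 a calmodulin-like protein. These genes were chosen from the same libraries by that likeness, so their differences are a description.

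Of the other EMT transcription factors among the genes chosen, neither SNAI2 nor ZEB1 was called. SNAI2 (Slug) had 30.2, 33.5 and 26.9 CPM in L1high and 37.9, 37.1 and 34.6 CPM in L1low replicates 1, 2 and 3. All L1low libraries lay above all L1high libraries, but the lowest L1low value was near the highest L1high value. The log2 fold change was 0.27 (95% confidence interval 0.06 to 0.49), with an unadjusted p of 0.0166 and an adjusted p of 0.118 in edgeR's quasi-likelihood test. SNAI2 lies on chromosome 8 and has 3 exons.

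ZEB1 (chr10:31318495-31529814, plus strand, 9 exons) had 9.00, 11.002 and 8.71 CPM in L1high and 9.19, 9.36 and 8.87 CPM in L1low libraries. The groups overlapped, since all 3 L1low values lay within the L1high range. The log2 fold change was -0.07 with a 95% confidence interval from -0.35 to 0.21 (edgeR adjusted p = 0.793). An antisense gene, ZEB1-AS1, shares 396 bases of exon with ZEB1 and was not called.

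Over a list of 18 EMT transcription factors, 13 were tested, of which FOXQ1 was called higher and SNAI1 lower, and 11 were not called. The median log2 fold change of the list was -0.07. SNAI1 (Snail), a paralog of SNAI2, had 10.6 ± 1.06 CPM in L1high and 5.31 ± 0.675 CPM in L1low cells (SD, n = 3), a log2 fold change of -0.99 (SE 0.14, edgeR adjusted p = 0.00138). FOXQ1 and SNAI1 thus moved in opposite directions between the same libraries. TCF3, an E-protein gene with the highest level per kb of exon in the list, had 121 ± 8.98 and 119 ± 8.40 CPM. ZEB2, TWIST2, PRRX1, KLF8 and GSC were not analysed here.

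**Figure D2:**
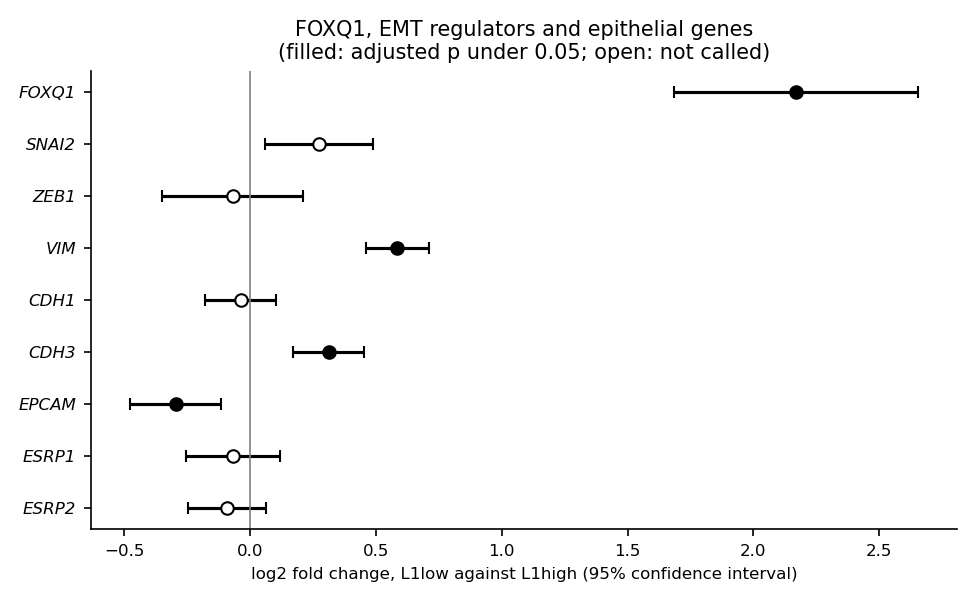
Log2 fold change of L1low against L1high for the 9 genes, with 95% confidence intervals from the fit to 6 libraries, filled where the adjusted p was under 0.05. FOXQ1 stood at 2.17, VIM at 0.58, CDH3 at 0.31 and EPCAM at -0.30, and the intervals of ZEB1, CDH1, ESRP1 and ESRP2 crossed 0.

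VIM, which encodes the intermediate filament protein vimentin of mesenchymal cells, was abundant in both populations and higher in L1low cells. It had 361, 377 and 373 CPM in L1high and 553, 547 and 565 CPM in L1low replicates 1, 2 and 3. The groups were far apart and each was tight. The means were 370 ± 8.40 and 555 ± 9.34 CPM (SD, n = 3), 50.0% higher in L1low cells, and the log2 fold change was 0.58 (SE 0.06, 95% confidence interval 0.46 to 0.71, edgeR adjusted p = 7.91e-05). By size of change VIM stood 354th of the 891 genes called higher. VIM lies at chr10:17228241-17237593 on the plus strand and has 10 exons. On the other strand, VIM-AS1 shares 656 bases of exon with it and ENSG00000234961 shares 619 bases. VIM-AS1 (log2 fold change 0.51, edgeR adjusted p = 0.00885) and ENSG00000234961 (0.65, edgeR adjusted p = 0.000280) were also called higher. The libraries were stranded, but the strand option of the counting is not given in the sources used here, so reads of VIM and of these partners may not have been told apart.

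Among 14 mesenchymal genes, 12 were tested, of which 4 were called higher in L1low cells, 1 lower and 7 neither. The median log2 fold change of the list was 0.29. AXL, a receptor tyrosine kinase gene, rose from 23.4 ± 1.12 to 63.7 ± 3.19 CPM (SD, n = 3), a log2 fold change of 1.44. TGFBI, a secreted matrix protein gene named for its induction by TGF-beta, rose by 1.06 on the log2 scale. CDH11, which encodes a mesenchymal cadherin, fell from 43.0 ± 5.86 to 28.9 ± 1.96 CPM, a log2 fold change of -0.57. FN1, the fibronectin gene, had 2.05 ± 0.297 and 2.70 ± 0.714 CPM and was not called. AXL and TGFBI stayed called under every alternative run. The call of CDH11 was lost when either L1high replicate 1 or L1low replicate 2 was left out. The number called in the list fell from 5 to 3 without L1high replicate 1 and to 4 without L1low replicate 2. It rose to 6 without L1high replicate 2, without L1low replicate 3, with the replicate number as a block and with DESeq2. CDH2 and SPARC were not analysed here.

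Markers of other cell types were read beside these values. Of 8 fibroblast markers 2 were tested, and their summed level ran from 79.9 to 90.8 CPM in L1high and from 131 to 151 CPM in L1low libraries. Nearly all of it was LUM, the gene of the proteoglycan lumican, at 82.9 ± 6.13 and 142 ± 11.3 CPM (SD, n = 3), which was called higher (log2 fold change 0.78), while COL3A1 had 1.35 and 1.64 CPM on average. COL1A2, PDGFRA, PDGFRB, DCN, THY1 and FAP were not analysed here. The 1 immune marker tested of 5, CD68, summed to 8.42 to 8.81 CPM in L1high and 9.37 to 11.3 CPM in L1low libraries, and the 1 endothelial marker tested of 4, PECAM1, to 11.3 to 11.9 and 13.2 to 14.7 CPM, neither called. Their part in the VIM and mesenchymal values was not tested.

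The classical cadherins CDH1 and CDH3 lie next to each other on chromosome 16. CDH1 (chr16:68737292-68835537, plus strand, 16 exons), which encodes E-cadherin, the adhesion protein of epithelial adherens junctions, had 78.2, 77.5 and 77.3 CPM in L1high and 75.2, 75.3 and 76.4 CPM in L1low libraries. The L1low values all lay just below the L1high values. The log2 fold change was -0.04 with a 95% confidence interval of -0.18 to 0.10 (edgeR adjusted p = 0.771).

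CDH3 (chr16:68636189-68727468, plus strand, 16 exons) encodes P-cadherin, which basal epithelial cells carry. It had 224, 209 and 233 CPM in L1high and 271, 278 and 278 CPM in L1low libraries, with no overlap. The means were 222 ± 12.4 and 276 ± 3.89 CPM (SD, n = 3), and the log2 fold change was 0.31 (SE 0.06, 95% confidence interval 0.17 to 0.45, edgeR adjusted p = 0.0118). The call was lost without L1high replicate 1 (edgeR adjusted p = 0.0696) and without L1low replicate 2 (edgeR adjusted p = 0.0779), with log2 fold changes of 0.32 and 0.31, and over all alternatives the adjusted p ran from 0.00225 to 0.0779. On the other strand, CDH3-AS1 shares 537 bases of exon with CDH3, and ENSG00000260798 shares 347 bases with CDH1. Neither was called, and as for VIM, their reads may not have been told apart from those of the cadherins.

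Ratios taken within a library depend little on the scaling between libraries. The log2 ratio of CDH3 to CDH1 was 1.51 ± 0.0815 in L1high and 1.86 ± 0.0175 in L1low libraries (SD, n = 3), a difference of 0.35 (two-sided exact permutation test, p = 0.1, and 0.15 after Benjamini-Hochberg adjustment over the 3 ratios). For VIM to CDH1 it was 2.25 ± 0.0408 and 2.87 ± 0.0132, a difference of 0.62 (exact permutation p = 0.1, adjusted 0.15). In both cases the groups did not overlap, and 0.1 is the smallest p that 3 libraries against 3 allow. Of the other 16q22 neighbours, ZFP90, TANGO6, UTP4 and SNTB2, none was called. TANGO6 had the lowest log2 fold change of them, -0.16, and ZFP90 the highest, 0.26, with 28.4 ± 2.06 and 34.0 ± 0.932 CPM.

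In the wider list of 11 adherens junction genes, CDH3 and NECTIN2 were called higher, NECTIN4 lower and 8 were not called, with a median log2 fold change of -0.01. NECTIN2 and NECTIN4 encode nectins, immunoglobulin-like adhesion proteins of these junctions. NECTIN2 had a log2 fold change of 0.28 (edgeR adjusted p = 0.0485), and its call was lost with RLE, upper-quartile or library-size scaling (edgeR adjusted p of 0.0511 to 0.0535) and without L1high replicates 1 or 2 or L1low replicates 2 or 3, the adjusted p running from 0.0180 to 0.216 over all alternatives. NECTIN4 fell from 12.8 ± 0.617 to 6.80 ± 0.582 CPM (SD, n = 3), a log2 fold change of -0.91 (edgeR adjusted p = 0.000769), and stayed called under every alternative run. JUP (plakoglobin), with the highest level per kb in the list, had 678 ± 62.5 and 712 ± 21.2 CPM and was not called.

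EPCAM (chr2:47345158-47387601, plus strand, 9 exons), which encodes an epithelial cell adhesion molecule found across carcinomas, was the single one of the 9 genes called lower. It had 237, 264 and 210 CPM in L1high and 200, 192 and 186 CPM in L1low libraries. The groups did not overlap, but the spread in L1high cells was wide. The means were 237 ± 26.9 and 193 ± 6.97 CPM (SD, n = 3), a ratio of 0.814, and the log2 fold change was -0.30 (SE 0.08, 95% confidence interval -0.48 to -0.12, edgeR adjusted p = 0.0496). This call lay at the threshold. It was lost without any one of L1high replicates 1 and 2 and L1low replicates 1, 2 and 3, with log2 fold changes of -0.32 to -0.21, and held without L1high replicate 3 at -0.37, the adjusted p running from 0.0129 to 0.182 over all alternatives.

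Of 10 epithelial surface and protease genes, 9 were tested, of which EPCAM, SPINT1 and PRSS8 were called lower, none higher and 6 were not called, with a median log2 fold change of -0.25. SPINT1, an inhibitor gene of epithelial serine proteases with the highest level per kb in the list, fell from 401 ± 29.6 to 326 ± 7.72 CPM (SD, n = 3). PRSS8, the gene of the membrane protease prostasin, fell from 94.5 ± 8.57 to 70.7 ± 0.929 CPM, the largest fall of the list at -0.42 on the log2 scale. No gene of the list stayed called without L1high replicate 1, and only PRSS8 did without L1low replicate 1 and without L1low replicate 2. SPINT1 (edgeR adjusted p = 0.0199 with all libraries) also lost its call without L1high replicate 3 (edgeR adjusted p = 0.0654). RAB25 was not analysed here.

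Among 15 tight junction and polarity genes CLDN4 and CLDN7 were called lower and 13 were not called, with a median log2 fold change of -0.09. CLDN4 and CLDN7 encode claudins, the strand-forming proteins of tight junctions. CLDN4 had a log2 fold change of -0.35 (344 ± 30.2 to 270 ± 19.2 CPM) and CLDN7 of -0.33 (207 ± 15.3 to 164 ± 3.90 CPM, SD, n = 3). CLDN3 had the lowest value of the list, -0.38, and F11R, a junctional adhesion molecule gene, the highest, 0.17, and neither was called. Both claudin calls were lost when either L1high replicate 1 or L1low replicate 2 was left out, and that of CLDN4 also without L1high replicate 3 and without L1low replicate 1. Without L1high replicate 1 and without L1low replicate 2, log2 fold changes were -0.32 and -0.37 for CLDN4 and -0.28 and -0.33 for CLDN7. Over all genes, those fits called 674 and 627, against 1548 with all libraries.

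ESRP1 and ESRP2, which encode RNA-binding proteins of epithelial splicing programmes, were not called. ESRP1 (chromosome 8, 16 exons) had 134, 143 and 121 CPM in L1high and 134, 133 and 113 CPM in L1low libraries, and the groups overlapped. Its log2 fold change was -0.07 with a 95% confidence interval of -0.26 to 0.12 (edgeR adjusted p = 0.683). ESRP2 (chr16:68229033-68238102, minus strand, 15 exons) had 58.4, 56.9 and 59.9 CPM in L1high and 53.8, 55.6 and 54.9 CPM in L1low libraries. Its groups did not overlap, yet the log2 fold change was -0.09 with a 95% confidence interval of -0.25 to 0.06 (edgeR adjusted p = 0.475). NFATC3 on the other strand shares 227 bases of exon with ESRP2, and ENSG00000262160 on the same strand shares 113 bases. Neither was called, and reads in the shared stretches are uncertain. The log2 ratio of ESRP1 to ESRP2 was 1.18 ± 0.156 and 1.20 ± 0.143 (SD, n = 3), a difference of 0.02 (two-sided exact permutation test, p = 0.8, adjusted 0.8), whose sign was not stable, since it turned negative without L1high replicate 3 and without L1low replicates 1 or 2.

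None of the 9 splicing regulators linked to EMT was called by edgeR's quasi-likelihood test with TMM factors and all 6 libraries, while 3 had an unadjusted p under 0.05 and DESeq2 called 1, RBM47. In edgeR, RBM47 was also called with library-size scaling and with at least 10 counts in every library, and SRSF1 without L1high replicate 3. The median log2 fold change was -0.01. The lowest was RBM47, which encodes an RNA-binding protein, at -0.31 (edgeR adjusted p = 0.0503), and the highest RBFOX2, a splicing factor gene, at 0.27 (edgeR adjusted p = 0.0678). SRSF1, the third with an unadjusted p under 0.05, stood at -0.26. HNRNPM, with the highest level per kb in the list, had 327 ± 14.5 and 333 ± 25.4 CPM (SD, n = 3).

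With GRHL2 not analysed, the epithelial transcription factors were read through the rest of that list. Of 13 genes 11 were tested, of which ELF3 was called higher, 5 were called lower, ZNF750, GRHL3, OVOL1 and GRHL1 among them, and 5 were not called, with a median log2 fold change of -0.05. GRHL3 and GRHL1, the paralogs of GRHL2, fell by 1.10 and 0.49 on the log2 scale, GRHL3 from 12.6 ± 1.61 to 5.85 ± 0.450 CPM (SD, n = 3). ZNF750, a regulator gene of epidermal differentiation, fell from 57.4 ± 0.704 to 26.6 ± 1.14 CPM, a log2 fold change of -1.11. OVOL1, a zinc finger repressor gene of epithelial cells, had a log2 fold change of -0.51. ELF3, an ETS factor gene of epithelial cells, rose from 263 ± 24.0 to 347 ± 18.0 CPM, a log2 fold change of 0.40. ZNF750 and GRHL3 stayed called under every alternative run, while GRHL1 lost its call without any one of the 6 libraries, OVOL1 without any one except L1high replicate 2 and ELF3 without L1low replicate 2. The number called in the list fell from 6 to 3 without L1high replicate 1 or L1low replicate 1 and to 2 without L1low replicate 2. Over the 7 lists, 17 genes outside the 9 were called. That number fell to 7 without L1high replicate 1 and to 8 without L1low replicate 2. The genes tested outside the 9 were 10 EMT transcription factors, 11 mesenchymal genes, 11 epithelial transcription factors and 7 splicing regulators. To these came 9 adherens junction, 15 tight junction and polarity and 8 epithelial surface and protease genes. Over all genes tested, 7.95% were called in either direction. The lists were chosen with earlier results of these data known, so the number is a description.

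Per kb of exon, the 9 genes spanned a wide range of levels. In L1high cells EPCAM was highest at 97.5 CPM per kb, followed by VIM at 71.5, CDH3 at 34.7, ESRP1 at 27.2, CDH1 at 12.8, ESRP2 at 11.3, SNAI2 at 9.20, ZEB1 at 1.11 and FOXQ1 at 0.537 CPM per kb. In L1low cells VIM stood at 107 CPM per kb and EPCAM at 79.4, so their order was exchanged. FOXQ1, at 2.42 CPM per kb in L1low cells, then stood above ZEB1 at 1.06 and remained below SNAI2 at 11.1. The transcripts of the epithelial genes and of VIM were thus both plentiful in each population, while those of FOXQ1 and ZEB1 were scarce. SNAI2 lay near ESRP2, below it in L1high cells and above it in L1low cells, where ESRP2 stood at 10.6 CPM per kb. The order between genes is rough, since the exon length pools all transcripts of a gene. The alignment did not place reads across splice junctions, so genes of many exons may lose reads that FOXQ1, of 1 exon, keeps.

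**Figure D3:**
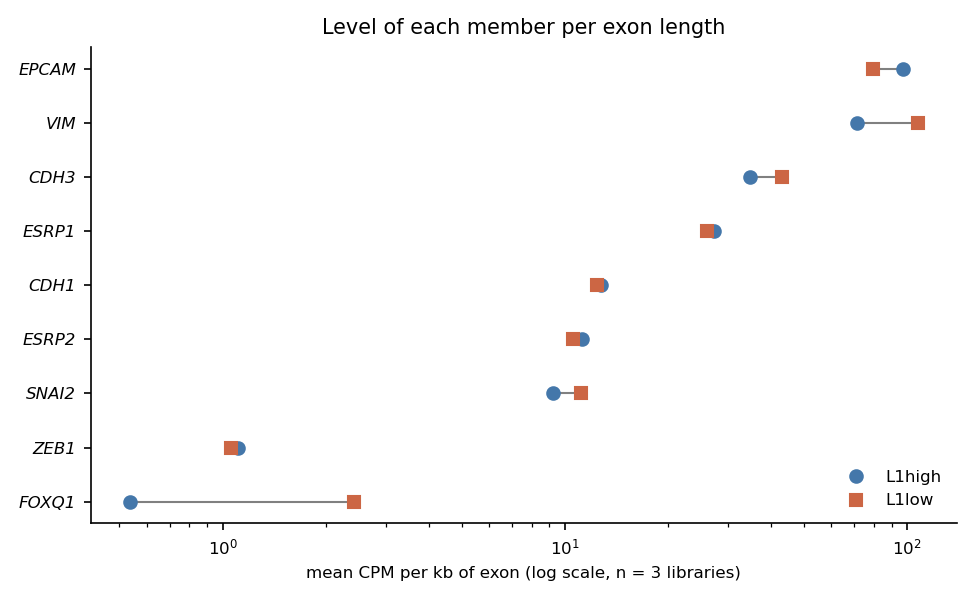
Mean level of each of the 9 genes in CPM per kb of exon on a log axis, with L1high as blue circles and L1low as orange squares (3 libraries each). EPCAM and VIM exchanged places at the top, at 97.5 and 71.5 in L1high and 79.4 and 107 in L1low cells, and FOXQ1 moved from 0.537 to 2.42.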

How the data were processed

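Stranded mRNA libraries were read from both ends, and the authors aligned the reads to GRCh38 using BWA, which does not place reads across splice junctions. They counted reads with featureCounts on the genes of Ensembl release 94. The deposited table holds those read counts unnormalized, and the submitters' processing notes also name DESeq2. Each of the 19469 genes exceeded 1 CPM in at least 2 libraries. GENCODE release 44 gave symbols to 19344 of them, coordinates and exon lengths.

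From the counts, L1low was compared with L1high in edgeR 4.0.16 (R 4.3.3) over all 6 libraries, using TMM factors, the filterByExpr filter and the quasi-likelihood test, with p-values adjusted by the Benjamini-Hochberg method. Log2 CPM used a prior count of 2. FOXQ1 rested on 24 to 136 reads a library, which limits its precision.

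The 10 genes and the lists were chosen with earlier results of these data known. Every gene of the 10 is described, and list genes are named when called, lowest, highest or most abundant, except some that are not reported here. SRSF1, FN1, COL3A1, CD68, PECAM1, the microRNA hosts and the genes sharing exon bases with the 10 fall outside that rule. They were named after their values were seen. FOXF2, FOXC1, ZFP90, UTP4, SNTB2, KRT8 and KRT18 also fall outside it. Each library was left out in turn, a block for the replicate number was added, DESeq2 1.42.0 was run, and other scalings and filters were tried.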

Additional observations from a re-analysis of the deposited data

How the results depend on the processing

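Over 20 results, 242 values were recomputed, of which 215 kept their side of the threshold and their direction or, for ratios and counts without a test, moved by less than the limit set for them. FOXQ1 (2.05 to 2.36), VIM (0.57 to 0.60) and L1CAM (-2.10 to -1.89) kept their calls under every alternative run. When each library was left out in turn, the log2 fold change ran from 0.27 to 0.36 for CDH3 and from -0.37 to -0.21 for EPCAM. It ran from -0.12 to 0.04 for ZEB1, turning positive (0.0443) without L1high replicate 2, and from -0.12 to 0.02 for ESRP1, turning positive (0.0174) without L1low replicate 3, and neither gene was called in any fit. The difference in the log2 ratio of ESRP1 to ESRP2 ran from -0.06 to 0.10, within the spread of the libraries. Of the 9 genes 2 to 4 were called, 0 to 1 of them lower, and of the other list genes 7 to 17. Over all genes 627 to 1473 were called, 393 to 859 higher and 234 to 614 lower, with the fewest without L1low replicate 2 (627) and without L1high replicate 1 (674), and the cause was not tested. With the replicate number as a block, 2363 genes were called, 1143 of them lower. Of the splicing regulators 3 were then called, RBM47, RBFOX2 and SRSF1, and SNAI2 was called (0.28, edgeR adjusted p = 0.0490, within a range of 0.0490 to 0.305 over its alternatives). No source ties equal numbers to a shared culture or sort. The correlations of the deviations of equal-numbered libraries were 0.07, 0.09 and 0.21, and each library correlated best with its own number, which is a hint from the data and not from the design. DESeq2, RLE, upper-quartile or library-size scaling and the filters on low counts changed no call among the 9 genes, and no scaling moved the median of all genes by more than 0.1 on the log2 scale. The ratio of ZEB1 to GRHL2 was not run, since GRHL2 was not analysed here.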

Other observations

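ZEB1 is a known target of the microRNAs of the miR-200 family and of miR-205, which were not themselves measured in these libraries. The microRNAs held by the host transcripts that were counted are shown with their seed (bases 2 to 8) in capitals, from RefSeq on GRCh38.p14.
hsa-miR-205-5p: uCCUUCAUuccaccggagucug
hsa-miR-200c-3p: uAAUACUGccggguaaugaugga
hsa-miR-141-3p: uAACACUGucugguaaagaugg
MIR205HG, the host transcript of miR-205 (chr1:209428817-209432848, plus strand), had 97.7, 110 and 90.4 CPM in L1high and 152, 173 and 167 CPM in L1low libraries. The groups did not overlap, and the log2 fold change was 0.72 (SE 0.08, edgeR adjusted p = 0.000320). MIR200CHG, which spans miR-200c and miR-141, had 0.981 ± 0.206 and 1.44 ± 0.627 CPM (SD, n = 3) on 13 to 33 reads a library, with overlapping groups (edgeR adjusted p = 0.397).

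In the 3' UTR of the canonical ZEB1 transcript, of 2540 bases, the complement of the seed of miR-205 was found 1 time, that of miR-200c 6 times and that of miR-141 3 times. Among 13379 transcripts the shares with at least 1 match were 12.9%, 18.7% and 20.7%. Of the other genes, CDH3 had 1 match for the seed of miR-205, SNAI2 1 for that of miR-200c and ESRP1 1 each for those of miR-200c and miR-141. FOXQ1, VIM, CDH1, EPCAM and ESRP2 had no match for any of the 3 seeds, though the 3' UTRs of VIM and EPCAM were short, at 322 and 407 bases. A host transcript is not a measure of its mature microRNA, and a match describes letters and not regulation.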
